A study of Drosophila melanogaster with 36 samples.

Results

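The baseline folding of the genome in ovarian somatic cells (OSCs) was described from the 4 Hi-C contact maps of Control-KD cells, with no knockdown map used. OSCs are a cultured line of Drosophila melanogaster ovarian somatic cells, and every Control-KD sample received an siRNA against EGFP, a gene that flies do not carry. The members were chosen by label: 8 of the 36 samples of the series, merged by the authors in pairs into 4 of the 9 deposited matrices, which are the controls of the Piwi-KD, Nxf2-KD, Egg-KD and H1-KD, and HP1a-KD experiments. Of the 2977 bins of 40 kb on the arms X, 2L, 2R, 3L and 3R of dm3, 2946 were kept in all 4 matrices and were analysed. The study asks how the Piwi–piRNA pathway, which silences transposable elements, affects the position of its targets in the nucleus, and these maps are its controls. The siRNA was given 2 times for a knockdown of 4 days and 1 time for 2 days, and of the Control-KD samples those of the HP1a series are labelled as 2 days. The cells are 1 cultured line, whose chromosomes can differ from the reference genome, and the labels do not say whether the replicates were separate cultures, so the spread between maps may be technical.

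Hi-C crosslinks chromatin, cuts it with a restriction enzyme, here HindIII, and ligates ends that lie close together, so that the number of ligated reads between 2 bins reports how often they met. In most genomes contact falls steeply with distance along the chromosome, is raised inside topologically associating domains (TADs), which are stretches of chromatin separated by boundaries, and is raised between distant regions of the same chromatin state. Fly nuclei often keep a Rabl arrangement, in which centromeres gather at one side of the nucleus and telomeres at the other, a leftover of the way chromosomes are pulled apart in mitosis. Fly chromosomes X, 2 and 3 supply the arms studied here, 2L and 2R being the arms of chromosome 2 and 3L and 3R those of chromosome 3.

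Each matrix is the sum of 2 replicates, so it gives 1 value and no spread of its own. Values are listed in the order Piwi, Nxf2, Egg and H1, and HP1a series throughout, and a difference is said to hold in all 4 where it has the same sign in each matrix. The maps hold 72450303, 67818267, 31120409 and 31691817 contacts, recovered from the corrected values as described under processing. A pair of bins held on average 369 to 869 contacts at 40 to 400 kb and 1.16 to 3.05 contacts between chromosomes, so that between chromosomes means over many pairs are precise and single pairs are not. Bins removed from at least 1 matrix numbered 31, of which 8 lay within 2 Mb of a centromere end. Before correction, the median bin of X had 0.823 to 0.839 times the coverage of the median bin of all arms, compared with 1.08 to 1.11 times on 3L. The 4 maps are not copies of each other: between pairs of maps the squared difference in contacts at 40 to 80 kb was 1.64 to 17.0 times that of sampling noise. By this ratio, which grows with depth for the same true difference, the shallow Egg and H1 map and HP1a map differed least. The deep Piwi and Nxf2 maps differed most. The correlation of contact over the arm mean at the same distance, which sampling noise lowers, gave no single order. It was 0.975 for the shallow pair and 0.95 for the deep pair at 80 to 400 kb. At 440 to 2000 kb it was 0.826 and 0.879.

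Most contacts lay within arms. The within-arm share of contacts between different bins was 80.3, 78.1, 81.7 and 80.8%, although pairs within arms made up 20.2% of all pairs. Pairs 40 to 400 kb apart were 0.666% of all pairs and held 39.1 to 42.6% of the contacts. Contacts between the arms of 1 chromosome made up 5.97 to 6.82%, and those between chromosomes 12.3 to 15.1%, the latter spread over 63.3% of the pairs. The Nxf2 map had the lowest within-arm share and the Egg and H1 map the highest.

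Contact fell with distance on every arm, in a similar way in the 4 maps. Corrected values were scaled so that the contacts of a bin with all other bins sum to 10000 on average. On this scale the mean of the 5 arms was 833, 860.3, 861 and 778 at 40 kb, 51.2, 46.3, 52.3 and 53.2 at 400 kb, 8.15, 8.42, 8.19 and 8.56 at 4 Mb and 1.19, 1.41, 1.35 and 1.38 at 16 Mb. The curve was fitted over 3 stretches, whose limits were set and not found from it. The decay exponent, the slope of log10 contact on log10 distance, was -1.33 to -1.28 from 80 to 400 kb, -0.778 to -0.712 from 0.4 to 4 Mb and -1.38 to -1.3 from 4 to 16 Mb. The middle stretch was thus the flattest of the 3 in each map, and the ranges of the 4 maps for the middle stretch did not overlap with those of the stretches beside it. A fit from 1 to 10 Mb gave a median of -0.731, compared with -0.760 from 0.4 to 4 Mb, so these limits do not mark the ends of the flat part.

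**Figure D1:**
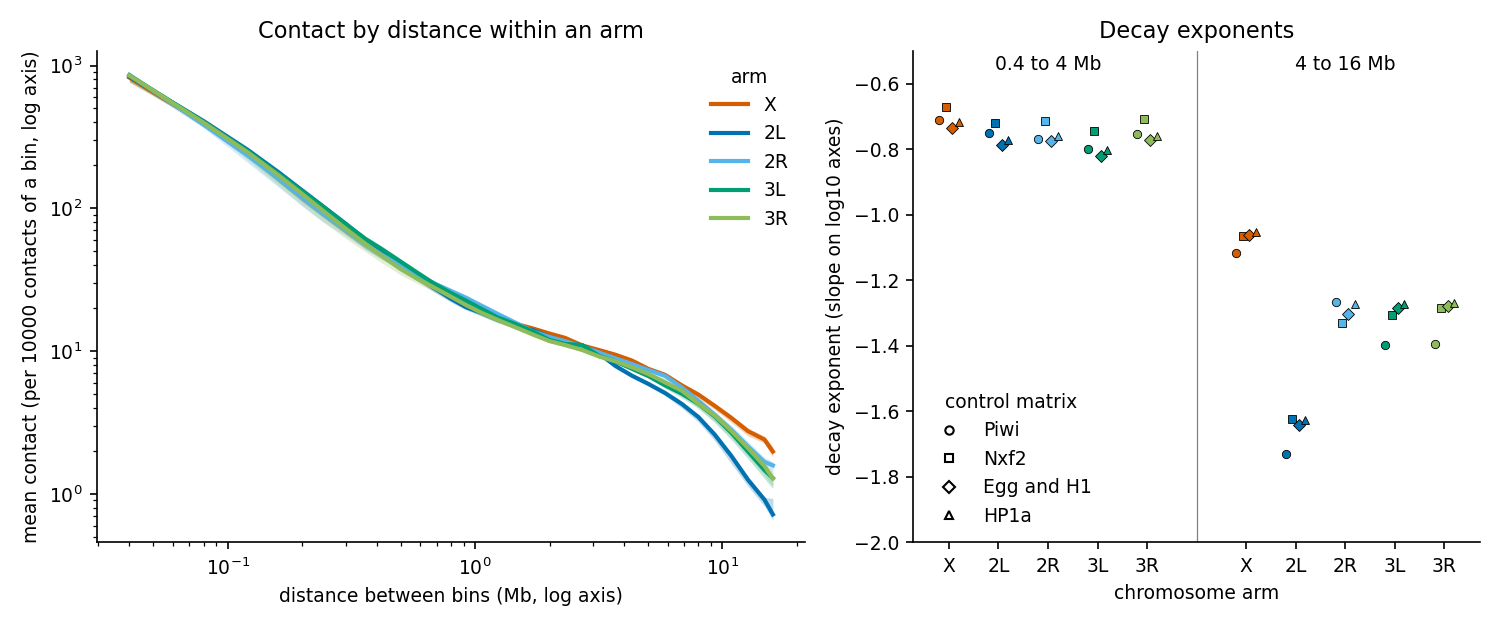
Left, mean contact within each arm (per 10000 contacts of a bin) by distance in Mb, both axes logarithmic; lines are the median of the 4 control maps and shading their range. Right, decay exponent of each arm from 0.4 to 4 Mb and from 4 to 16 Mb, 1 point for each map; 2L lies lowest in the longer range, between -1.73 and -1.62, and X highest.

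The X chromosome decayed less steeply than the autosome arms. From 0.4 to 4 Mb the exponent of X was -0.711, -0.672, -0.734 and -0.718, the least negative of the 5 arms in each map, and that of 3L, -0.801, -0.746, -0.821 and -0.804, the most negative. The exponents of 2L, 2R and 3R were -0.786 to -0.72, -0.776 to -0.716 and -0.773 to -0.708, and their order differed between maps. X minus the mean of the 4 autosome arms was 0.0579, 0.0506, 0.0546 and 0.0559. This difference between arms was smaller than that between maps, since the Nxf2 map was flatter than the others on all 5 arms. With bins within 2 Mb of an arm end left out, the median of the X difference fell to 0.0296. From 4 to 16 Mb the X difference was larger, at 0.306 to 0.33. The autosome mean includes 2L, the steepest of the 5 arms in that range, so the difference also holds the steepness of 2L. At 10 Mb the mean contact on X was 3.66, 3.92, 3.84 and 3.94, compared with 2.74, 3.07, 2.89 and 3.22 on 3L.

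Arm 2L stood apart from the other autosome arms beyond 4 Mb. Its exponent from 4 to 16 Mb was -1.73, -1.62, -1.64 and -1.63, and 2L minus the mean of 2R, 3L and 3R was -0.378, -0.314, -0.353 and -0.354, while from 0.4 to 4 Mb it was not steeper than that mean in any map. Contact across 1 place of 2L was low. Contact between the 4 Mb before and the 4 Mb after a border was 0.575, 0.606, 0.595 and 0.592 times expected at its lowest point on 2L, at 9760000, and at least 0.812 times on every other arm. Close to it lay the pair of bins of different chromosomes with the most contacts in the genome, 9520001 to 9560000 on 2L with 27800001 to 27840000 near the telomere of 3R. That pair held 3007, 2388, 1185 and 1093 contacts, and its corrected value was 408, 394, 418 and 372 per 10000, close to the mean of bins 80 kb apart on 1 arm, 404, 382, 417 and 390.1. It was picked after its values were seen and is called the 2L–3R junction below. The word is a name for the place, and whether the 2 arms are joined there in these cells was not tested. Bins of 2L that were 2 Mb apart with the junction between them had a mean contact of 6.75, 7.04, 6.02 and 6.95, and those on 1 side of it 13.8, 13, 12.9 and 13.5.

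Taken on its own, each side of 2L was flatter beyond 4 Mb than the whole arm. From 4 to 9 Mb the exponent was -0.727 to -0.654 on the telomere side of the junction and -0.945 to -0.739 on the centromere side, compared with -1.23 to -1.09 for 2L as a whole and -1.01 to -0.965 for 2R. The telomere side was also flatter than X from 0.4 to 4 Mb, with -0.613, -0.573, -0.636 and -0.627. The median X difference was 0.0185 when 2L was represented by its telomere side and 0.0648 when it was represented by its centromere side.

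Domains were called in each map from a separation score, the mean of distance-corrected contacts between the bins before and after a border of bins, over windows of 120 to 400 kb; a boundary is a local minimum that passes a rank test against its surroundings. Boundaries numbered 291, 288, 287 and 290 of 2952 borders scored, or 9.86%, 9.76%, 9.72% and 9.82%. In all 4 maps, within 1 bin of each other, 255 were called, or 8.64% of borders. Thus 87.6 to 88.9% of the boundaries of a map recurred in the 3 others, and 8, 15, 1 and 7 recurred in none of them. The same bin was called in all 4 maps for 210 boundaries. Across the 2952 borders, which share reads with their neighbours, the scores of 2 maps had a Pearson correlation of 0.981 to 0.999.

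Boundaries in all 4 maps were spread over the arms at similar density, 49 on X, 48 on 2L, 51 on 2R, 49 on 3L and 58 on 3R, which is 1 for every 415 kb on 2R and 1 for every 501 kb on 3L. The median distance between neighbouring boundaries of a map was 400 kb in each of the 4, with quartiles of 280 to 300 and 480 kb. The smallest domains measured 160 kb, which is the least distance the calling allowed, and the largest 880 to 920 kb. No map had a domain of 1 Mb or more.

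Contact was lower across boundaries in maps that had no part in calling them. Boundaries called in 3 maps were laid on the map left out, and pairs of bins 80 to 200 kb apart were compared with the mean of their arm at that distance. Pairs inside a domain had 1.15, 1.15, 1.15 and 1.14 times the expected contact, and pairs with a boundary between them 0.644, 0.646, 0.63 and 0.644 times. The log2 ratio of same-domain over across-boundary contact was 0.83, 0.83, 0.86 and 0.83. It was highest on 2R in each map, at 0.89 to 0.93. It was lowest on 3L in the Piwi and Nxf2 maps and on 2L in the others, and neither the range of 3L, 0.73 to 0.82, nor that of 2L, 0.78 to 0.81, overlapped that of 2R. The 4 maps come from the same cell line, so the map left out is a repeat of the experiment and not another kind of cell.

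**Figure D2:**
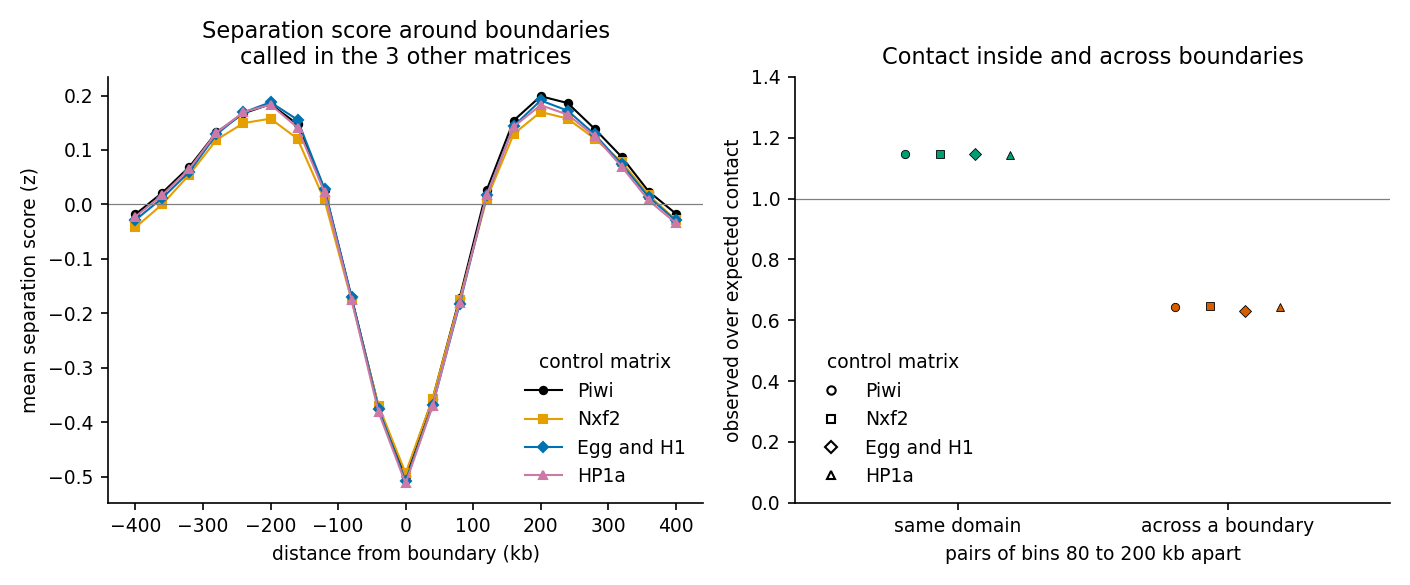
Left, mean separation score (z units) by distance in kb from boundaries called in the 3 other control maps, 1 line for each map; the score falls to -0.512 to -0.493 at the boundary and rises to 0.17 to 0.199 at 200 kb. Right, observed over expected contact of bins 80 to 200 kb apart within a domain and across a boundary, 1 point for each map, with the axis starting at 0.

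The 5 boundaries with the lowest scores in all 4 maps lay on 2L, 3L and 3R. These scores were used to choose them and are given as a description. The lowest was the border at 9520000 on 2L, with a score of -1.08, -1.04, -1.05 and -1.11, which is the edge of the junction bin. Next were 11160000 on 3R, with scores from -1.054 to -1.005, 9440000 on 3L, from -1.128 to -1.003, 19560000 on 3R, from -1.075 to -1.003, and 16320000 on 2L, from -0.989 to -0.934. The median score of the 255 boundaries was -0.59 to -0.555 in the 4 maps, and that of all borders -0.167 to -0.162. Some of the 255 had scores above 0 in all 4 maps, up to 1.52 to 1.70 at 23760000 on 3L. A boundary is low against its surroundings and need not be low for its arm.

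The study placed a pair of oligonucleotide pools on 3L, called TAD probe-1 and TAD probe-2, to measure distances inside a domain by microscopy. Each probe is a pool of 80 oligos, covering 17550003 to 17554855 and 17947436 to 17951209. The oligo of each pool nearest the telomere shows the design, with the 26 bases of dm3 it binds in capitals and the arms of 19 bases shared by all oligos of both pools in lower case.
TAD probe-1, 3L 17550003 to 17550028: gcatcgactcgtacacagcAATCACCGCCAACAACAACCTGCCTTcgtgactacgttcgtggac
TAD probe-2, 3L 17947436 to 17947461: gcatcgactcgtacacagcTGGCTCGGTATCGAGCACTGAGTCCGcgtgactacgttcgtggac
The bins that hold them, 17520001 to 17560000 and 17920001 to 17960000, had 405, 392, 220 and 204 contacts with each other, or 0.929, 1.09, 1.13 and 1.01 times the mean of 3L at 400 kb. With exact Poisson intervals (95%), which cover counting error alone, the lower bounds of the ratio were 0.84, 0.989, 0.982 and 0.873 and the upper bounds 1.02, 1.21, 1.28 and 1.15, so that 1 lay inside the interval of each map. The probed pair was thus near the average of its arm: 38.6, 23.4, 22.8 and 34.3% of the 591 pairs of 3L at this distance had a higher value. A boundary was called at 17960000 in all 4 maps, and another at 17480000 in the Piwi and Nxf2 maps. In the Egg and H1 map and the HP1a map the boundary nearest the bin of TAD probe-1 was called at 17560000, between the probed bins, so that the pair shared a domain in 2 maps and not in the other two.

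Domains with both boundaries in all 4 maps and no other boundary between them in any map numbered 211, with a median size of 400 kb. Contact inside, over the arm mean at the same distances, rose with domain size. It was 1.17 to 1.19 times expected in the 55 domains up to 280 kb and 1.23 to 1.24 times in the 119 of 320 to 480 kb. In the 37 of 520 kb and more it was 1.3 to 1.35 times. The arm mean at longer distances holds more pairs that cross a boundary, so this rise does not show that larger domains were denser. The 5 largest differed from each other. The domain from 4560001 to 5320000 on X, of 760 kb, had 1.68, 1.67, 1.75 and 1.72 times the expected contact, and that from 6200001 to 6960000 on 3L, of the same size, had 1.03, 1.01, 1.04 and 1.05 times. The next, of 680 kb each, had 1.62, 1.47, 1.6 and 1.58 times on 3R from 15720001 to 16400000, 1.39, 1.42, 1.47 and 1.44 times on X from 11920001 to 12600000 and 1.05, 1.05, 1.07 and 1.08 times on 2R from 11120001 to 11800000. Contact inside was thus near the mean of the arm in the domains of 3L and 2R in this list and well above it in those of X and 3R, although the boundary at 5320000, which ends the largest domain of X, had a score of only -0.126, -0.152, -0.136 and -0.132.

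Beyond 2 Mb, the bins of an arm fell into a pair of classes with different partners. Classes were taken from the sign of the first eigenvector of the correlation map of contacts at 2 Mb and more, from 3 maps at a time, and were then tried on the map left out. The sign was set so that the mean of the eigenvector over the centromere-proximal 2 Mb of each arm is negative. On 2R bins of both signs alternated in that end, so the sign of 2R rests on a small mean. Pooled values of the positive and negative class, and values between chromosomes, depend on this choice. Pairs of the same class had 1.11, 1.11, 1.12 and 1.11 times the expected contact and pairs of opposite class 0.895, 0.898, 0.894 and 0.899 times, a log2 ratio of 0.31, 0.31, 0.32 and 0.30. Pooled over the arms, 2L included, the excess lay with the positive class, whose bins had 1.22, 1.27, 1.25 and 1.24 times the expected contact with each other. On 2L the positive class was the telomere side of the junction, as given below, and the part of 2L in this excess was not tested. Bins of the negative class had 0.974, 0.943, 0.95 and 0.951 times, under 1 in each map but above the level of opposite classes. When contacts from 4 Mb on were used alone, the median log2 ratio was 0.18, compared with 0.31.

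**Figure D3:**
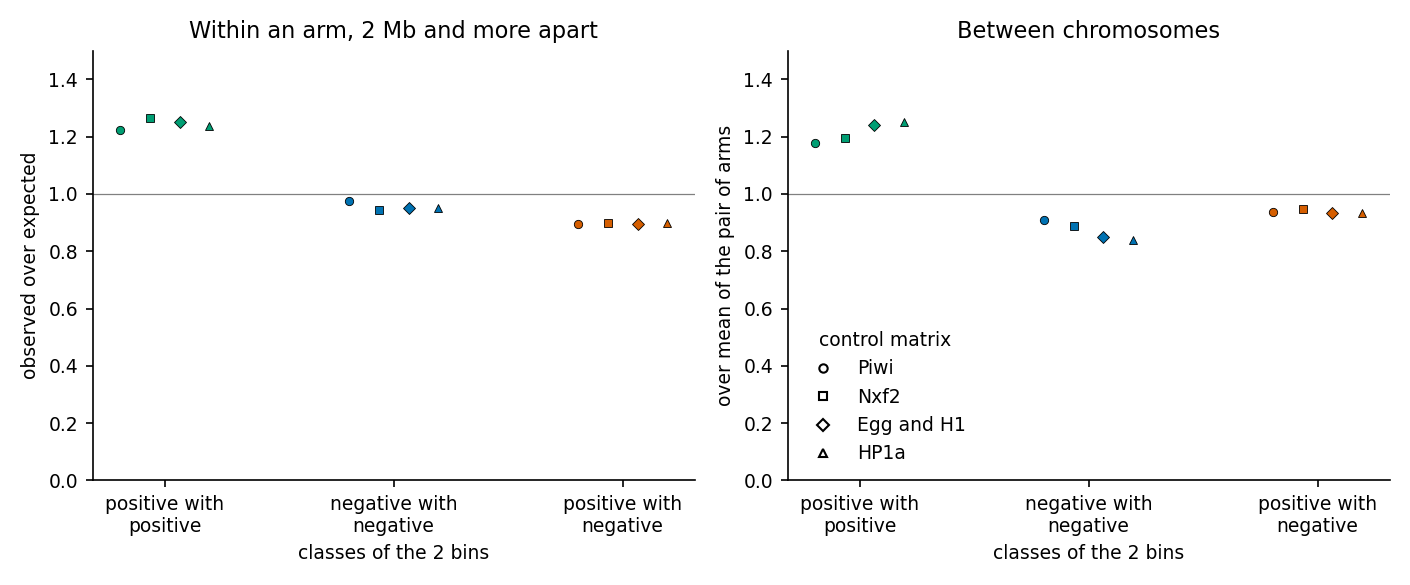
Contact of bins by class in the 4 control maps, with classes taken from the 3 other maps and axes starting at 0. Left, observed over expected contact within arms at 2 Mb and more, where positive with positive lies between 1.22 and 1.27; right, contact between chromosomes over the mean of the pair of arms, where it lies between 1.18 and 1.25.

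The classes changed often along 4 of the arms, 110 to 116 times on X, 90 to 96 on 2R, 110 to 120 on 3L and 151 to 171 on 3R. On 2L there were 3 to 7 changes, and the classes were its sides: 100% of bins up to the junction and 2.13 to 2.74% of those after it were positive. With separate expected values for pairs on 1 side and pairs across the junction, an analysis added after the data were seen, 2L had 106 to 110 changes and a log2 ratio of same over opposite class of 0.30, 0.32, 0.32 and 0.29, compared with 0.31, 0.36, 0.35 and 0.31 on X, 0.29, 0.21, 0.24 and 0.25 on 2R, 0.28, 0.28, 0.29 and 0.27 on 3L and 0.27, 0.26, 0.27 and 0.23 on 3R. The longest run of 1 class was positive on 2L, 2R and 3R, at 1 to 9800000, 6320001 to 9480000 and 16560001 to 18040000, and negative on X and 3L, at 19680001 to 21120000 and 22960001 to 24543557. Not every bin of a run had its class in each map. The share that did was 98.4 to 100% on 2L, 87.3 to 100% on 2R, 91.9 to 100% on 3R, 94.3 to 100% on X and 95 to 100% on 3L.

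Classes agreed between maps on most arms. When each map set its own classes, 2 maps gave the same class to 89.7 to 93.7% of bins on X, 96.5 to 99.3% on 2L, 89.6 to 92.9% on 3L and 89.5 to 93.8% on 3R. On 2R the Piwi map stood apart, with 73.6, 74.0 and 78.9% of bins in the same class as the Nxf2, the Egg and H1, and the HP1a map, while those 3 shared 92.4 to 93.9%. Within arms other than 2L, the classes also differed in the share of contact at 40 to 400 kb and with other arms. The eigenvector did not use these contacts. Shares of a bin's contact add up to a whole, however, so they are tied to the far-cis contact that set the classes. Contacts at 40 to 400 kb made up 46.3 to 49.8% of the contact of the median negative bin on 3R and 33.9 to 37.8% of that of the median positive bin, and on X the shares were 46.5 to 49.5% and 34.7 to 38.9%. Contact with other arms went the other way, at 14 to 17.7% and 17.9 to 21% on 3R. Coverage before correction moved with the classes too, the median negative bin of X having 0.675 to 0.7 and the median positive bin 0.912 to 0.942 times that of the median bin, and its part in the class pattern was not tested.

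Between chromosomes the same classes, which rest on contacts within arms and on the sign set for each arm, separated less. The log2 ratio of same over opposite class was 0.18, 0.15, 0.20 and 0.20. Positive bins met positive bins of another chromosome at 1.18, 1.2, 1.24 and 1.25 times the mean of the pair of arms, and negative bins met negative bins at 0.908, 0.886, 0.851 and 0.84 times, below the level of opposite classes, 0.938, 0.949, 0.932 and 0.932. Its median changed with the bins used and with correction, and was 0.0333 without bins within 2 Mb of an arm end, 0.0544 with 2L split at the junction and 0.0063 on contacts before correction, compared with 0.19.

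Single pairs of bins far apart on 1 arm reached many times the expected contact. Of 738079 pairs at 2 Mb and more, 4000 were at least 2-fold above expected in all 4 maps, or 0.542%, and 313 at least 4-fold, or 0.0424%. By arm, 58 of the latter lay on X, 62 on 2L, 75 on 2R, 93 on 3L and 25 on 3R. These were 0.0457, 0.0465, 0.066, 0.0597 and 0.012% of the pairs of each arm, highest on 2R and lowest on 3R. Of those on 2L, 57 had both bins on the same side of the junction. The expected contact of 2L averages pairs on 1 side and pairs across, so pairs on 1 side reach a given fold more easily. The share of all pairs of 2L on 1 side is not given, so this count shows no enrichment. The 5 highest, chosen by these values, were as follows. On 3L, 1080001 to 1120000 met 20440001 to 20480000 at 63.6, 50.7, 57.3 and 53.4 times the expected contact, from 225, 177, 96 and 95 contacts, and the first of these bins had 0.41 times the median coverage before correction. On 2R, 14920001 to 14960000 met 18920001 to 18960000 at 50, 45.9, 47.7 and 41.1 times, from 4520, 3946, 1847 and 1732 contacts, the most of the 5 pairs. On 3R, 11600001 to 11640000 met 22640001 to 22680000 at 53.9, 41.6, 41.4 and 35.3 times, from 512, 289, 139 and 130 contacts, and the second of these bins had 0.56 times the median coverage. The part of low coverage in these values was not tested.

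On X, 13680001 to 13720000 met 21760001 to 21800000 at 33.1, 34.5, 40 and 33.2 times the expected contact, and on 3L, 6640001 to 6680000 met 9280001 to 9320000 at 32, 40.2, 33.5 and 31.3 times. In 4 of these 5 pairs, 1 of the bins was the bin with the most 4-fold pairs on its arm, and its partners lay mostly side by side, as a stripe in the map. The bin from 20440001 on 3L took part in 35 of the 93 pairs of that arm, 33 of them with partners within 800 kb of the median partner. The bin from 13680001 on X took part in 14 of 58, with partners from 21040001 to 22040000. The bin from 14920001 on 2R took part in 15 of 75, with partners from 18760001 to 19520000, and that from 11600001 on 3R in 9 of 25, with partners from 22360001 to 22800000. No annotation of dm3 was used, so the genes or repeats in these bins are not named.

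Between arms, contact was highest for the arms of 1 chromosome. The mean contact of 2L with 2R was 1.35, 1.49, 1.31 and 1.38 per 10000 and that of 3L with 3R 1.04, 1.18, 1.03 and 1.08. Among arms of different chromosomes 2L with 3R was highest, at 1.02, 1.12, 0.98 and 1.03, and 2R with 3R lowest, at 0.538, 0.603, 0.468 and 0.485. X met 2R at 0.831, 0.895, 0.744 and 0.781, 2L at 0.821, 0.888, 0.728 and 0.763, 3L at 0.736, 0.806, 0.65 and 0.683 and 3R at 0.632, 0.69, 0.548 and 0.573, the same order in each map. Without the 2 Mb at each arm end, arms of 1 chromosome had 1.16, 1.31, 1.14 and 1.19 and arms of different chromosomes 0.696, 0.77, 0.627 and 0.656 per 10000, a log2 ratio of 0.73, 0.76, 0.86 and 0.86. The median ratio was 0.90 with 2L and 3R left out as a pair, compared with 0.81.

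**Figure D4:**
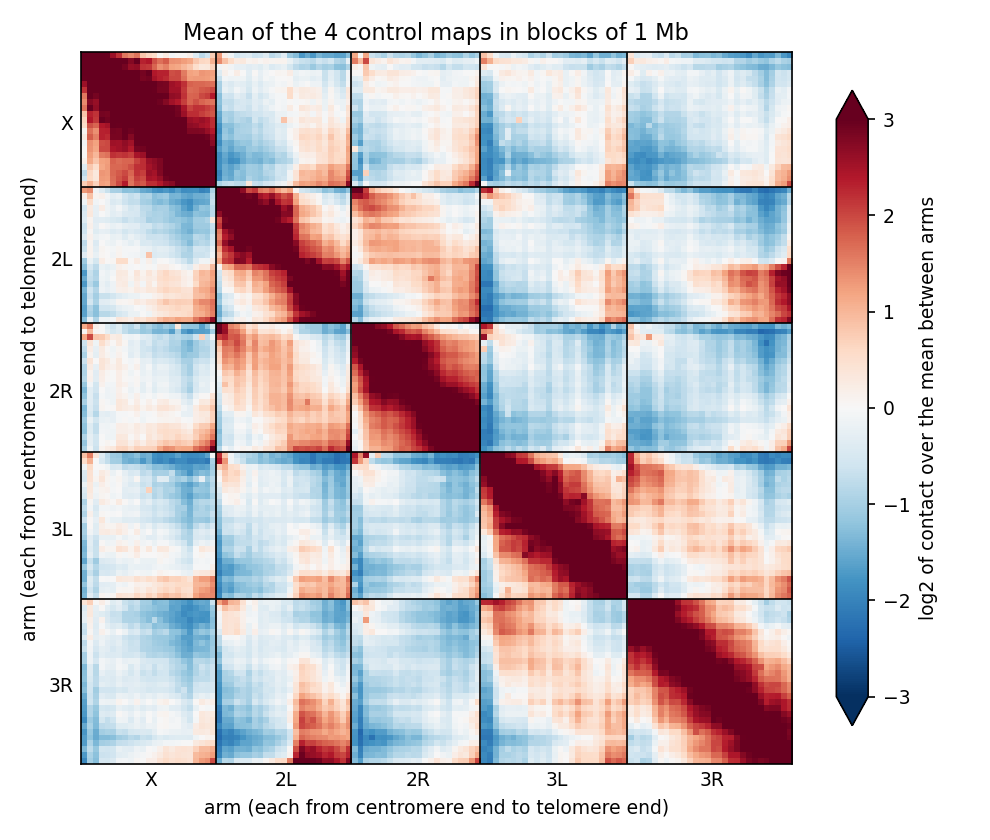
Mean of the 4 control maps in blocks of 1 Mb, each arm running from its centromere end to its telomere end from left to right and from top to bottom; colour is log2 of contact over the mean between arms and is held at the ends of the colour bar beyond it. The arms of 1 chromosome, the corners where ends of the same kind meet, and the block of the telomere side of 2L with the last Mb of 3R lie above the mean.

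Ends of the same kind met more often than other parts of different chromosomes. The centromere-proximal 2 Mb of arms of different chromosomes met at 1.77, 1.85, 1.6 and 1.68 per 10000 and the telomere-proximal 2 Mb at 2.44, 2.74, 2.38 and 2.51, compared with a mean of all pairs between chromosomes of 0.734, 0.806, 0.659 and 0.689. On the log2 scale the excess was 1.27, 1.20, 1.28 and 1.29 for centromere ends and 1.73, 1.77, 1.86 and 1.86 for telomere ends, higher for telomere ends in each map. A centromere end met a telomere end of another chromosome below the mean, with a log2 ratio of -0.86, -1.07, -1.18 and -1.26, least so in the Piwi map. The centromere end of an arm met the telomere end of the same arm at 0.721, 0.684, 0.685 and 0.72 per 10000 on average, from 0.406 to 0.461 on 2L to 1.17 to 1.43 on X. The median log2 excess of centromere ends was 0.75 on contacts before correction for coverage and 0.70 with ends of 4 Mb, compared with 1.28.

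The excess faded along the arms. Bins of different chromosomes that both lay within 1 Mb of the centromere end had a log2 excess of 1.69 to 1.89, those at 1 to 2 Mb 0.82 to 0.85, those at 2 to 4 Mb 0.47 to 0.51 and those at 4 to 8 Mb -0.02 to 0.03. From the telomere end the corresponding values were 2.19 to 2.34, 1.32 to 1.45, 1.13 to 1.23 and 0.41 to 0.48. The values at 4 to 8 Mb changed when 2L and 3R were left out as a pair, a choice made after seeing the data: they were then 0.19 to 0.24 from the telomere end and 0.10 to 0.12 from the centromere end. Up to 4 Mb the values without this pair were of similar size, for bins within 1 Mb 2.16 to 2.33 from the telomere end and 1.83 to 2.06 from the centromere end.

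Pairs of arms differed at their centromere ends more than at their telomere ends. The highest value for centromere ends was that of 2L with 2R, which flank the centromere of chromosome 2, at 7.84, 7.6, 7.54 and 7.98 per 10000, compared with 3.2, 3.5, 3.16 and 3.44 for 3L with 3R. Among different chromosomes, centromere ends of 2L and 2R met that of 3L at 2.61 to 2.91 and 2.51 to 2.78 and that of 3R at 1.57 to 1.99 and 1.02 to 1.28, and X met the 4 autosome arms at values from 0.877 to 1.61. Over the mean of the pair of arms, all 10 pairs were above 0 on the log2 scale in all 4 maps, for centromere ends from 0.65 to 2.54 and for telomere ends from 1.25 to 2.11. Telomere ends of X and 2L had 1.93 to 2.11 and those of 3L and 3R 1.25 to 1.30.

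Telomere-proximal bins gave a larger part of their contact to other arms. A bin near an arm end has close neighbours of its own arm on 1 side only, and the part of this in the values was not tested. On 3R this part was 31.7, 34.1, 30.7 and 32.1% in the last 2 Mb and 17.2, 19.3, 16.1 and 16.8% between the ends, and on X it was 23.3, 25.6, 21.1 and 22.3% and 17.2, 18.8, 15.3 and 16%. The last 2 Mb of 3R gave 16 to 16.8% of their contact to 2L, their partner at the junction, and the rest of 3R 4.78 to 5.54%. Without contacts of 2L with 3R, the part on 3R was 18.8, 21.2, 17.9 and 18.9% in the last 2 Mb and 12.9, 14.5, 11.9 and 12.4% between the ends. With all arms used, and on 2L and 3R also without these contacts, it was higher at the telomere end than between the ends on each of the 5 arms in each map. At the centromere end of 3L the part was lower than between the ends, at 14.9, 16, 12.8 and 13.4% compared with 18.2, 20.4, 16.8 and 17.5%. Some ends were dense inside: at 1 to 2 Mb, bins of the centromere end of 2R had 2.02 to 2.13 times the mean of their arm, and those of the telomere end of 3L 1.61 to 1.65 times.

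Away from the ends, bins of different chromosomes met more often when they lay at similar distances from their centromeres. With distances that differed by under 2 Mb the mean contact was 0.819, 0.923, 0.753 and 0.788 per 10000, and with distances that differed by over 8 Mb it was 0.557, 0.601, 0.485 and 0.505, a log2 ratio of 0.56, 0.62, 0.63 and 0.64. In steps of 2 Mb the contact fell at each step in each map, to 0.392, 0.415, 0.314 and 0.323 at 18 to 20 Mb. The ratio was above 0 for all 10 pairs of arms in all 4 maps, from 0.20 to 0.22 for X with 3R to 1.11 to 1.13 for 3L with 3R. Among different chromosomes it was highest for 2L with 3L, at 0.91 to 1.05. With limits of 1 and 4 Mb in place of 2 and 8 Mb, the median ratio was 0.41, compared with 0.63.

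**Figure D5:**
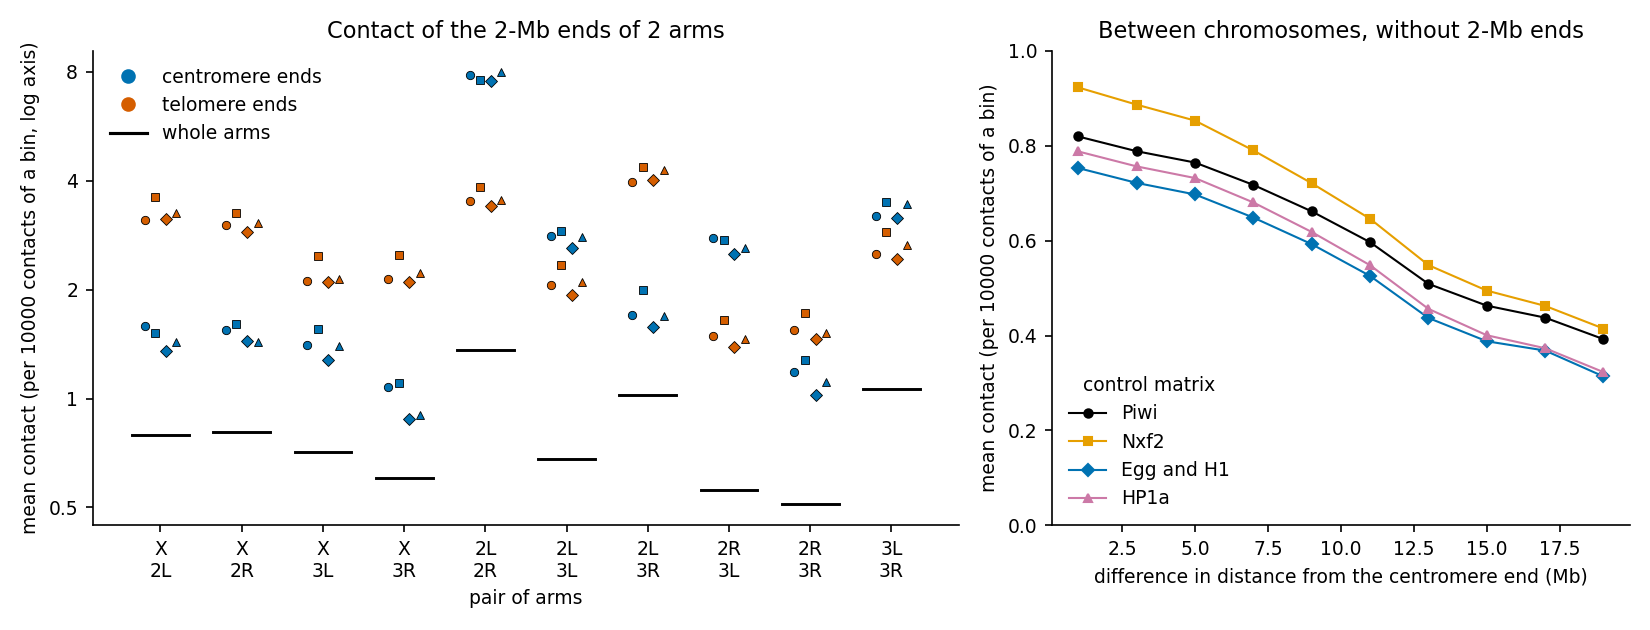
Left, mean contact (per 10000 contacts of a bin, log axis) between the centromere-proximal 2 Mb and between the telomere-proximal 2 Mb of each pair of arms, 1 point for each control map (order Piwi, Nxf2, Egg and H1, HP1a), and the median of whole arms as a bar; all points lie above the bars. Right, mean contact between chromosomes without the 2-Mb ends, by the difference in distance from the centromere end in Mb; all 4 lines fall from left to right.

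The 2L–3R junction was seen over many Mb. The last 2 Mb of 3R met 2L at 9.28, 9.04, 9.15 and 9.43 per 10000 within 2 Mb on the telomere side of the junction and at 2.31, 2.19, 2.21 and 2.32 on the other side, and at 4 to 8 Mb from it at 4.32, 4.74, 4.4 and 4.66 and 0.596, 0.643, 0.551 and 0.566.

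Apart from it, a few pairs of single bins on different arms had contact far above the mean of their arms. Outside the 2-Mb ends the highest was 2280001 to 2320000 on 2R with 3280001 to 3320000 on 3R, at 378, 322, 398 and 388 times the mean of 2R with 3R, from 288, 263, 117 and 115 contacts. The bin of 2R had 0.25 times the coverage of the median bin before correction, which divides by coverage. Next were X 11080001 to 11120000 with 3L 18440001 to 18480000, at 143, 159, 157 and 136 times, X 2640001 to 2680000 with 2R 2160001 to 2200000, at 129.6, 146, 144 and 122 times, 2L 7280001 to 7320000 with 2R 13560001 to 13600000, at 132, 119, 129 and 107 times, and X 11080001 to 11120000 with 2L 11720001 to 11760000, at 86.2, 106, 86.5 and 88.3 times. The pair of 2L and 2R had the most contacts of these, 1143, 1014, 457 and 418, and its bins had 1.36 and 1.33 times the median coverage. Of the other bins of the pairs listed next, that of X from 11080001 had 0.69 times and that of 2R from 2160001 0.48 times. The rest had 0.93 to 1.66 times the median coverage. The bins of 2R from 2160001 and 2280001 lie just past the 2-Mb centromere end.

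With the ends included, the highest pair was 2200001 to 2240000 on 2R with 24440001 to 24480000 on 3L, both in the centromere-proximal part of their arms, at 1819, 562, 570.4 and 527 times the mean. It rests on 170, 66, 23 and 24 contacts and on bins with 0.18 and 0.11 times the median coverage, and the Piwi map stands apart in it. The junction pair followed, at 402, 353, 427 and 361 times. The bin from 21800001 to 21840000 on X, near its centromere end, was in high contact with 22520001 to 22560000 on 2L, at 276, 318, 332 and 352 times, and with 2280001 to 2320000 on 2R, at 434, 270.0, 287 and 288 times. These bins near centromeres had 0.5, 0.61 and 0.25 times the median coverage, and the part of low coverage in their values was not tested.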

How the data were processed

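The authors cut OSC chromatin with HindIII and summed 2 replicates per matrix. With HiCExplorer 3.3, per the submitters' processing notes, they removed bins of extreme coverage, corrected each matrix by ICE, an iterative balancing of coverage, and normalised matrices to each other. The Hi-C aligner is not given in the sources used here. The deposited values are a signal, the corrected contact of 2 bins of 40 kb on dm3. Since correction multiplies each pair by a factor per bin, these factors were solved for and contacts were recovered: among recovered values under 50, 100% were whole to within 0.01. Intervals cover counting error alone.

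Corrected values were scaled to a mean sum of 10000 a bin. Expected contact within an arm was the arm mean at the same distance. Separation scores and boundaries followed HiCExplorer's method (windows of 120 to 400 kb, delta 0.01, FDR 0.01, least distance 160 kb). Boundaries and classes were taken from 3 matrices and measured in the fourth. Named regions were the 5 lowest boundaries, the 5 largest domains, the longest run of a class on each arm, the 5 highest pairs on 1 arm and between arms, with and without 2-Mb ends, each by the least favourable of the 4 maps, and the probe bins. The members, measures and named regions were chosen with earlier results of these data known. Scripts were tested on simulated data. Values were computed with SciPy 1.17.1 and NumPy 2.4.6 under Python 3.11.15, and drawn with matplotlib 3.10.9 from pandas 2.3.3 tables. The 5 knockdown matrices were not used. As each matrix pools its replicates, no p-value was computed. Alternatives covered the bins used, contacts before correction, thinning to the depth of the shallowest map, distance limits and each matrix left out.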

Additional observations from a re-analysis of the deposited data

Results flagged for a closer look

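Among 108 sets of 4 values, 1 for each control map, 10 had a map so far from the other three that its gap to the nearest of them, as a share of the whole range, exceeded Dixon's critical value, where chance flags about 1 set in 20. The Piwi map stood apart in 6 sets, the Nxf2 map in 3, the Egg and H1 map in 1 and the HP1a map in 0. The sets overlap, since many use the same contacts.

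In the Piwi map, 2R 2.2 Mb with 3L 24.44 Mb had 1819 times the mean of its arms, compared with 526.9 to 570.4 in the others, and X 21.8 Mb with 2R 2.28 Mb had 434 times, compared with 270.0 to 288 times. Both pairs involve bins near centromeres with low coverage. Also in the Piwi map, the exponent of 2L from 0.4 to 4 Mb minus the mean of the other autosome arms was 0.0246, compared with 0.0031 to 0.0036, and that of 3R from 4 to 16 Mb was -1.40, compared with -1.29 to -1.27. Its log2 ratio of matched over unmatched distance from the centromere was 0.47 for X with 2R, compared with 0.55 in each of the others, and 1.01 for 2L with 2R, compared with 1.06 to 1.07.

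In the Nxf2 map, X 11.08 Mb with 2L 11.72 Mb had 106 times the mean of its arms, compared with 86.2 to 88.3. Its telomere ends of X and 3L met at 2.47 per 10000, compared with 2.10 to 2.14, and its centromere ends of 2L and 2R had a log2 value of 2.35 over the mean of these arms, compared with 2.53 to 2.54. In the Egg and H1 map, the log2 ratio of same-domain over across-boundary contact was 0.86, compared with 0.83 in each of the others.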

How the results depend on the processing

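All values here are medians of the control maps, with the result as reported last. Of 63 alternatives, not counting those that left out a matrix, 33 moved the value by less than the spread between maps or, for the count of boundaries, by less than 1.5 times, 30 moved it by more and 0 reversed its sign. The 255 boundaries became 204 on contacts before correction, 199 with windows of 200 to 800 kb, 210 when the same bin was required, and 252 and 253 otherwise. On contacts before correction, the X minus autosome exponent was 0.0438 (0.0552), the domain size 440 kb (400), and the log2 ratios were 0.89 (0.83) for same domain over across boundary, 0.35 (0.31) for far-cis classes, 0.0063 (0.19) for classes between chromosomes, 0.90 (0.81) for arms of 1 chromosome, 0.75 (1.28) for centromere ends, -1.31 (-1.12) for centromere with telomere ends and 0.67 (0.63) for matched distances. Fitted from 1 to 10 Mb, the exponent was -0.731 (-0.760) and the X difference 0.0829. Without bins within 2 Mb of an arm end these were -0.727 and 0.0296, far-cis classes 0.34 and classes between chromosomes 0.0333. Windows of 200 to 800 kb gave a domain size of 460 kb. Far cis from 1 Mb gave 0.32 and from 4 Mb 0.18. Without 2L with 3R, arms of 1 chromosome had 0.90. With ends of 1 Mb, centromere and telomere ends had 1.87 and 2.28 (1.81), and with ends of 4 Mb 0.70 and 1.48. Matched distances with limits of 1 and 4 Mb had 0.41. The strongest pair between arms was to be compared as recovered contacts, which are not in the unit of its ratio to the mean, so that no comparison was made. Alternatives chosen after seeing the data left out 2L with 3R from the ends, which gave 1.39 for centromere ends, and split 2L at the junction, which gave 0.28 for far-cis classes and 0.0544 for classes between chromosomes, 0.10 with 2L and 3R also left out as a pair. With 2L as its telomere or centromere side, the X difference was 0.0185 or 0.0648. The causes of these shifts were not tested. With 1 matrix left out, 5 values moved by more than the spread: same domain over across boundary ranged from 0.83 to 0.85, far-cis classes from 0.29 to 0.31 and classes between chromosomes from 0.15 to 0.18. No paired analysis was possible because replicates were summed before deposit and the columns carry no replicate number. Depth limits single pairs of bins between chromosomes, which held 1.16 to 3.05 contacts on average.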
